A study of Mus musculus with 6 samples.

Results

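The Janus kinase (JAK) and STAT genes measured here are 6 STAT transcription factors (Stat2, Stat3, Stat4, Stat5a, Stat5b and Stat6) and 3 kinases (Jak1, Jak2 and Jak3). The members were all probe sets whose only gene symbol in the platform annotation is one of these names, which gave 19 probe sets for 9 genes among 45101 probe sets on the array. A further 2 probe sets carry Jak3 together with a second symbol and were left out. All 19 passed the filter on low values, which kept 29507 probe sets for 13280 genes.

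The cytokine receptors that signal through JAKs lack enzyme activity of their own and carry JAKs on the part of their chains inside the cell. When a cytokine joins the chains, the kinases phosphorylate one another and the receptor, STAT proteins dock there, are phosphorylated, pair up and enter the nucleus to bind DNA. Regulatory T cells depend on interleukin 2 signals through JAK1, JAK3 and STAT5, which sustain Foxp3, while STAT3, STAT4 and STAT6 serve cytokines that shape the Th17, Th1 and Th2 types of helper T cell. The arrays read messenger RNA, so the phosphorylation that switches these proteins on was not measured.

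The KO group holds 3 arrays from mice with the FoxP3-GFP-hCre allele, the ROSA26R-YFP reporter and Dicerlox/lox, and the Het group holds 3 arrays from mice with the same allele and reporter and Dicerwt/lox. RNA came from lymph node T cells sorted as CD4+YFP+. In both groups Cre follows Foxp3 and YFP stays on in a cell once Cre has acted, so the Het cells also carry Cre and 1 lox copy of Dicer. The arrays of each group bear the letters A, B and C, which the labels do not tie to separate animals, so each p-value covers only how these 3 arrays a group scattered, technical scatter included, and their number limits the precision.

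Median intensities were 58.1 to 61.5 per array, and across the tested probe sets arrays of the same group correlated at r = 0.977 to 0.986, those of different groups at 0.960 to 0.979. The 2 Dicer1 probe sets gave log2 differences, KO minus Het, of -0.03 and -0.52 (limma, adjusted p = 0.891 and 0.145), and where their probes lie relative to the lox sites is not known here, so they do not check the genotype. Foxp3 read 5453, 9417 and 5420 on the KO arrays A, B and C and 9960, 8945 and 9769 on the Het arrays. All 6 measured markers of alpha beta CD4 T cells passed the filter, and their summed intensity was 95847 to 117327 in KO and 118020 to 126706 in Het. Cd4 itself had a higher mean in KO (5703 in KO and 5227 in Het), and Cd3e, Cd3d, Cd3g, Cd5 and Cd28 had lower ones. Every KO array read below every Het array for Cd3d and Cd3g only. None of these markers passed (limma, adjusted p under 0.05). The sums of the markers of other cells were higher on the B array than on the other arrays of its group for B cells (7 markers, 6 past the filter; 2019 to 5169 in KO and 1160 to 2823 in Het), CD8 T cells (3 markers; 1453 to 7275 in KO and 845 to 2564 in Het), NK cells (4 markers, 3 past the filter; 155 to 1745 in KO and 140 to 635 in Het) and myeloid cells (8 markers, 5 past the filter; 579 to 2663 in KO and 437 to 684 in Het). Pax5, Ncr1, Itgam, Cd14 and Itgax failed the filter. Single genes weighed heavily in the B cell, NK and myeloid sums. Cd22 had a mean of 1785 in KO and 636 in Het. Of the other B cell markers past the filter, Ms4a1, Cd79a and Cd79b had higher means in KO, and Blk and Fcer2a lower ones. Klrd1 read 1621 on KO B and 566.2 on Het B, while Klre1 read 17.2 and 17.6 there. Lyz2 read 1408 on KO B and 381.4 on Het B. In Het, Cd68 was lowest on array B (28.4) and Fcgr3 was highest on array A (119.8), so the markers of a list did not all follow its sum. The 5 plasma cell markers summed to 15072 to 20970 in KO and 8880 to 9149 in Het, and among them Xbp1 rose (limma, adjusted p = 0.0270). Xbp1 made up most of that sum, with a mean of 14235 in KO and 7645 in Het. Jchain, Mzb1 and Prdm1 had higher means in KO without passing, and Sdc1 a lower one (72.4 in KO and 77.1 in Het). The 6 stroma and erythroid markers, 3 past the filter, summed to 1601 to 1874 in KO and 1185 to 1482 in Het. Pecam1 made up most of that sum, with a mean of 1671 in KO and 1296 in Het. Col1a1 and Pdpn, also past the filter, had lower means in KO. The 7 regulatory T cell markers summed to 90865 to 92834 in KO and 83160 to 88615 in Het, and among them Nrp1 fell (adjusted p = 0.0191). They did not move together. Ctla4 (mean 30276 in KO and 17872 in Het), Il2ra, Tnfrsf18 and Capg had higher means in KO, and Foxp3, Ikzf2 and Nrp1 lower ones. Which of these cells express each STAT and JAK gene was not measured here, and the part of such cells in the results below was not tested. In sorted bulk samples fewer cells of a type and less RNA per cell cannot be told apart.

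None of the 19 STAT and JAK probe sets passed the test (limma, adjusted p under 0.05), where 1.78% of all probe sets did. The smallest adjusted p was 0.0587, for Stat3. At an unadjusted p under 0.05, 6 of the 19 were higher in KO, against 9.24% of all probe sets, and 0 were lower, against 9.85%. These 6 belong to Stat2, Stat3, Jak2 and Jak3. On 7 of the 19 probe sets every KO array read above every Het array, which held for 11.3% of all probe sets, and on 0 did every KO array read below every Het array (14.9% of all). The median log2 difference was 0.30 over the 19 probe sets and -0.03 over all probe sets tested. With 1 probe set a gene, the brightest, it was 0.00397 over the 9 genes. Of these 9 genes 6 were positive, against 5762 of all 13280 genes, and the 6 include Stat4 at 0.0040 and Stat5a at 0.0031. All 4 Stat3 probe sets were positive and count singly in the 19. The median over the 19 was 0.18 without KO C and 0.21 without both B arrays.

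**Figure D1:**
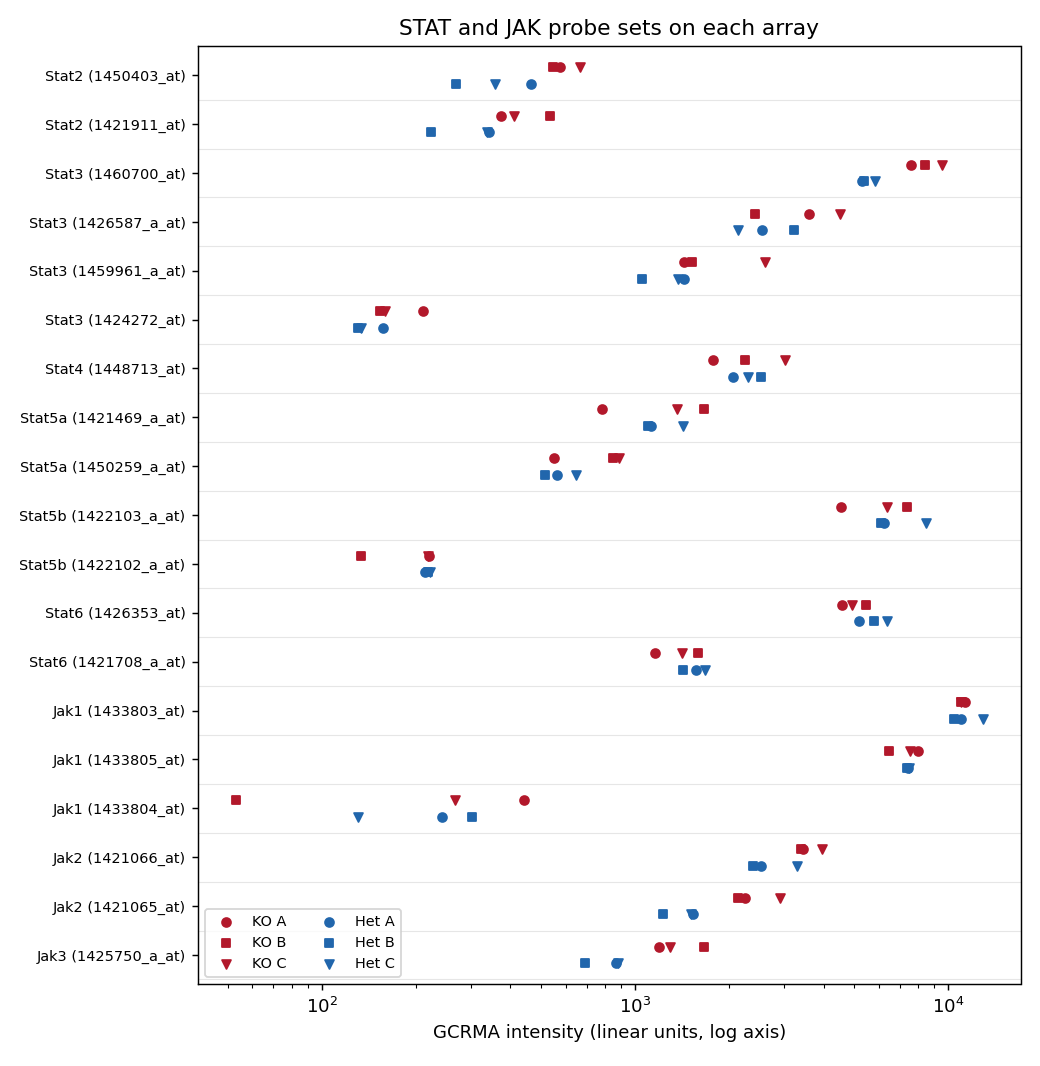
Intensity of each STAT and JAK probe set on each array, with KO arrays in red on the upper line and Het arrays in blue on the lower line of each row (log axis). KO and Het points are separate for both Stat2 probe sets, Stat3 1460700_at and 1459961_a_at, both Jak2 probe sets and Jak3, and they overlap in the other 12 rows.

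STAT2 works beside an interferon regulatory factor in the complex that answers type I interferons. The brighter Stat2 probe set read 574.2, 546.2 and 664.9 on KO A, B and C and 466.5, 268.8 and 357.7 on Het A, B and C. Every KO array was above every Het array, and Het B was the lowest. Its log2 difference was 0.74 ± 0.22 (SE), a 1.67-fold higher mean in KO with a 95% interval of 1.15 to 2.42, and adjusted p = 0.153 (limma). The dimmer Stat2 probe set read 372.0, 534.9 and 411.2 in KO and 342.7, 222.7 and 336.4 in Het. It also kept the groups apart, by a smaller log2 difference of 0.56 ± 0.22 (adjusted p = 0.262). Without both B arrays the log2 differences were 0.60 for the brighter and 0.20 for the dimmer probe set, smaller in both cases. For the dimmer one it was 0.35 without Het B alone.

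The start of Stat2 was read for sequence because genes that answer type I interferons are switched on through a DNA element, the ISRE. Its core motif is GAAANNGAAA. The windows were the 250 bases before each start in RefSeq (GRCm38.p6), of which 12 exist for the 9 genes, since some genes have more than 1 start. Among all 32851 such windows 2.98% hold the ISRE core on either strand, and 2 of the 12 do, 1 of Stat2 and 1 of Stat4. The Stat2 window is chr10:128270248-128270497 on the plus strand, and the Stat4 window, of the second of its listed starts, is chr1:52007990-52008239 on the plus strand. Both are shown 5′ to 3′ to set side by side a gene with KO above Het and one whose groups overlap, with the motif matches in capitals:
Stat2: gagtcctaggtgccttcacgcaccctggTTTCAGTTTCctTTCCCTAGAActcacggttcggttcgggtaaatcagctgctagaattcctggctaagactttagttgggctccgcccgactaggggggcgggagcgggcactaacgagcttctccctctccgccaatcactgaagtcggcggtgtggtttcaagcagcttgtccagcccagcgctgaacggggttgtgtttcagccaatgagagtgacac
Stat4: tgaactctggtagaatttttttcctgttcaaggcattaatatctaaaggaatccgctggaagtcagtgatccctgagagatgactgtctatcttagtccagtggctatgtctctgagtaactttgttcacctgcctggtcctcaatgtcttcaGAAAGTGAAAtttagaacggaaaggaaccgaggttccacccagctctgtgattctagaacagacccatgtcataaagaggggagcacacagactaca
In Stat2 the ISRE core match runs from base -222 to -213, counted back from the start, and is read on the minus strand. A second match in capitals, from -210 to -201, is to TTCNNNNGAA, the spacing that STAT6 favours, which 5.85% of windows hold and which does not overlap the first. In Stat4 the match runs from -97 to -88. The STAT motif TTCNNNGAA was in 0 of the 12 windows and in 7.02% of all. A match of letters is a description and says nothing of binding.

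Stat3 gave the smallest p of the family. STAT3 answers interleukins 6, 10 and 21, and in mice it drives the Th17 type and lets regulatory T cells restrain Th17 responses. Its brightest probe set (1460700_at) read 7608, 8419 and 9552 on KO A, B and C and 5309, 5382 and 5833 on Het A, B and C. The groups were far apart beside their spread, 8526 ± 976 in KO and 5508 ± 284 in Het (SD, n = 3 each). The log2 difference was 0.63 ± 0.11 (SE; limma, adjusted p = 0.0587), which is 1.54-fold with an interval of 1.28 to 1.86. It stayed between 0.54 and 0.70 when any 1 array was left out and was 0.62 without both B arrays.

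The other Stat3 probe sets gave smaller positive differences. Probe set 1426587_a_at read 3585, 2422 and 4521 in KO and 2547, 3223 and 2137 in Het, so KO B lay below Het A and Het B (log2 0.39 ± 0.27, adjusted p = 0.504). It is the Stat3 probe set on which the B arrays ran against the groups, and its log2 difference was 0.79 without both of them and 0.63 without KO B alone. Without KO C it was 0.18 and without Het C 0.25. Probe set 1459961_a_at read 1438, 1521 and 2595 in KO and 1432, 1051 and 1368 in Het, a separation by a few units between KO A and Het A (log2 0.49 ± 0.26, adjusted p = 0.392). That value was 0.22 without KO C, the array that was high in KO. The dimmest one, 1424272_at, read 210.6, 152.8 and 159.5 in KO and 156.8, 130.7 and 133.4 in Het (log2 0.30 ± 0.15, adjusted p = 0.364), with KO B just under Het A. Without KO A, its highest array, the log2 difference was 0.16. The suffix _a_at, carried by 8 of the 19 probe sets, marks a design that several transcripts of the same gene share. Whether the 4 Stat3 probe sets read different transcripts is not known here.

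JAK2 serves the receptors of interferon gamma and interleukin 12 among others, and JAK3 pairs with the common gamma chain of the interleukin 2 family of receptors. The brighter Jak2 probe set read 3438, 3396 and 3948 on KO A, B and C and 2531, 2374 and 3288 on Het A, B and C. The gap was narrow, with Het C close to KO B (log2 0.41 ± 0.15, SE; limma, adjusted p = 0.225). The dimmer Jak2 probe set read 2239, 2133 and 2911 in KO and 1530, 1232 and 1510 in Het, a clear separation with a mean of 2428 ± 422 in KO and 1424 ± 167 in Het (SD, n = 3 each). Its log2 difference of 0.76 ± 0.16 is 1.70-fold with an interval of 1.29 to 2.23 (adjusted p = 0.0803), and it was 0.75 without both B arrays.

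Jak3 read 1194, 1661 and 1295 on KO A, B and C and 869.8, 693.3 and 882.5 on Het A, B and C on the 1 probe set that carries its name alone. All KO arrays were above all Het arrays, and the B arrays were the extremes, high in KO and low in Het. The log2 difference was 0.76 ± 0.17 (limma, adjusted p = 0.0894), 1.69-fold with an interval of 1.27 to 2.25. Without both B arrays it was 0.51.

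Jak1, which serves the interleukin 2, interleukin 6 and interferon receptors, showed no such gap. The brightest Jak1 probe set read 11315, 10978 and 11000 in KO and 10950, 10453 and 12931 in Het, and the next read 8031, 6470 and 7548 in KO and 7434, 7395 and 7509 in Het. Their log2 differences were -0.04 ± 0.10 and -0.02 ± 0.10, with 95% intervals of -0.29 to 0.22 and -0.28 to 0.23, so differences within those bounds could not be told from 0 here. The dimmest Jak1 probe set read 441.2, 53.0 and 265.8 in KO and 242.1, 302.3 and 130.2 in Het. It was the 1 member that read below the array median on any array, in KO B, and its interval of -2.27 to 1.86 bounds little. Its log2 difference of -0.21 was 0.95 without both B arrays and -0.84 without KO A.

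STAT5A and STAT5B are close paralogues that carry the interleukin 2 signal in regulatory T cells. The brighter Stat5a probe set read 785, 1655 and 1357 on KO A, B and C and 1123, 1100 and 1418 on Het A, B and C. Here KO A was the lowest and KO B the highest of all arrays, and the log2 difference was 0.0031 ± 0.29 (SE; limma, adjusted p = 0.997), with values of 0.31 without KO A and -0.22 without KO B. The dimmer Stat5a probe set read 552.7, 847.8 and 886.1 in KO and 562.5, 516.3 and 649.7 in Het, again with KO A at the Het level (log2 0.38 ± 0.21, adjusted p = 0.401). Without KO A that value was 0.60, and without both B arrays 0.21.

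Stat5b read 4542, 7377 and 6361 in KO and 6218, 6100 and 8507 in Het on its brighter probe set, with KO A lowest and Het C highest (log2 -0.20 ± 0.23, SE; limma, adjusted p = 0.691). That difference was -0.0018 without KO A, -0.04 without Het C, -0.35 without KO B and -0.44 without both B arrays. Its dimmer probe set read 219.9, 133.3 and 217.6 in KO and 212.9, 217.6 and 221.0 in Het, where KO B alone stood low (log2 -0.23 ± 0.21, adjusted p = 0.620). Without KO B that log2 difference was 0.011, and without KO A or KO C it was -0.35 or -0.34. The interval of the brighter probe set, -0.76 to 0.36, holds sizeable changes in both directions.

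Stat4, which carries interleukin 12 signals in Th1 cells, read 1770, 2249 and 3010 on KO A, B and C and 2056, 2524 and 2290 on Het A, B and C. The KO arrays reached both below and above all Het arrays, and the log2 difference was 0.004 ± 0.21 (SE; limma, adjusted p = 0.994), with values of -0.19 without KO C and 0.19 without KO A. Stat6, which carries interleukin 4 and 13 signals in Th2 cells, read 4567, 5454 and 4941 in KO and 5204, 5810 and 6395 in Het on its brighter probe set. Those groups overlapped slightly, with KO B above Het A (log2 -0.22 ± 0.12, adjusted p = 0.384). The dimmer Stat6 probe set read 1154, 1589 and 1408 in KO and 1567, 1418 and 1668 in Het (log2 -0.17 ± 0.14, adjusted p = 0.573). Both Stat6 probe sets were negative under each alternative fitted to them, and neither passed in any, but their size moved. The brighter one was -0.14 without Het C, and the dimmer one ranged between -0.34, with both B arrays left out, and -0.05, with KO A left out.

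**Figure D2:**
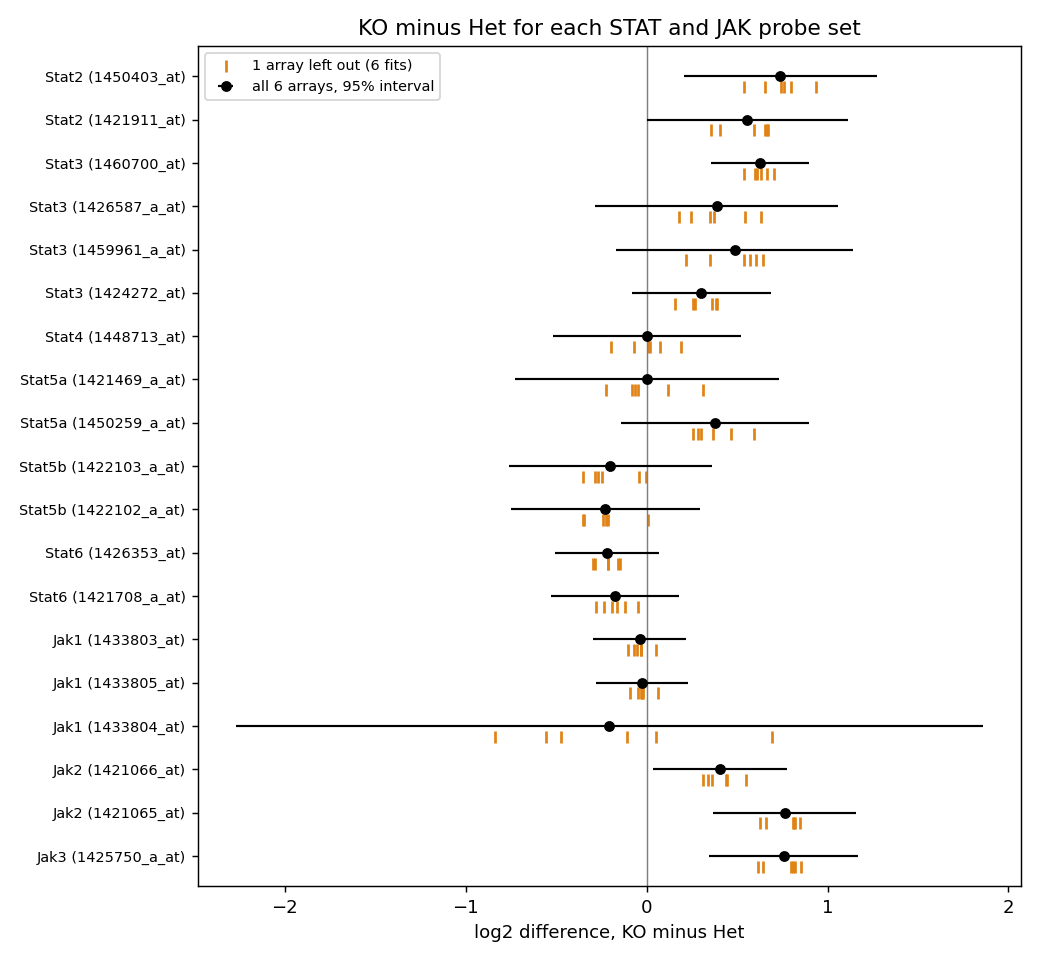
Log2 difference, KO minus Het, of each STAT and JAK probe set with its 95% interval (black), and the value in each of 6 fits that leave out 1 array (orange ticks). The intervals of both Stat2, both Jak2, the Jak3 and the brightest Stat3 probe sets lie above 0, Jak1 1433804_at has the widest interval, and those of the other 12 rows include 0.

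The median SD of log2 intensity was 0.25 among KO arrays and 0.18 among Het arrays over the 19, against 0.17 and 0.15 over all probe sets tested. The narrowest KO spread was that of the brightest Jak1 probe set (SD 0.024) and the widest that of the dimmest Jak1 probe set (SD 1.60).

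The level of 1 gene relative to another was taken for 5 pairs, as the difference of their log2 intensities on each array, on the brightest probe sets. The pairs were chosen after the values were seen, 4 of them to set a gene with KO above Het beside one with overlapping groups, so the separation below largely follows from that choice and is given as a description with no test. Stat3 over Stat5b, which lie next to each other with Stat5a on chromosome 11, was 0.74, 0.19 and 0.59 on KO A, B and C and -0.23, -0.18 and -0.54 on Het A, B and C, a mean difference of 0.82 ± 0.20 (log2, SE). The ratio of Jak2 to Jak1 was 0.45 ± 0.09 higher in KO than in Het, that of Jak3 to Jak1 0.80 ± 0.17 and that of Stat2 to Stat6 0.96 ± 0.31. In these 4 pairs every KO array was above every Het array. Stat5a over Stat5b differed by 0.20 ± 0.12 with overlapping groups.

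**Figure D3:**
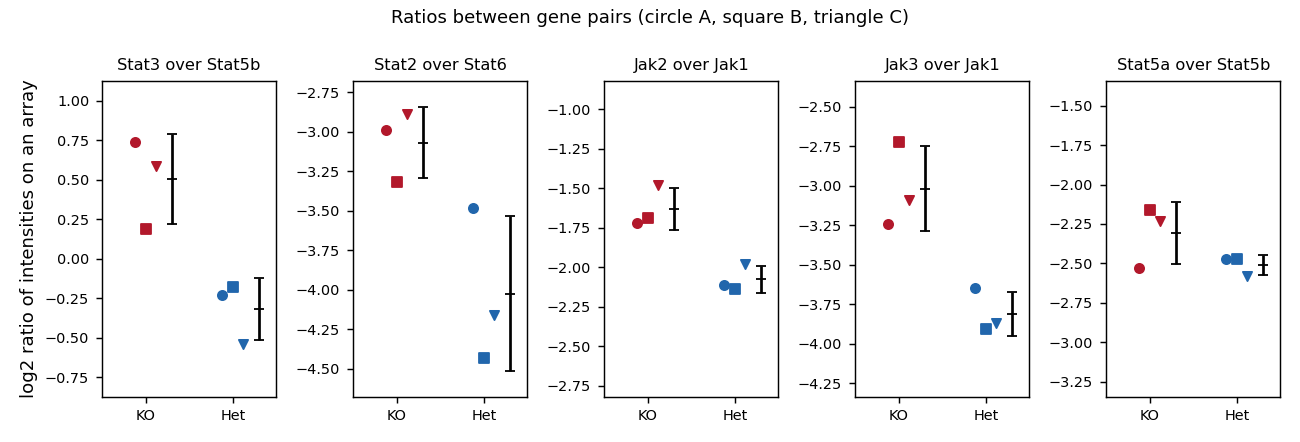
Log2 ratio of 2 genes' intensities on each array for 5 pairs, KO in red at the left of each panel and Het in blue at the right, with the mean and SD in black (n = 3 each) and an equal span of axis in all panels. The first 4 panels have all KO points above all Het points, and the last has overlapping groups. The height of a panel's points has no meaning across panels, since probe sets differ in brightness for the same amount of RNA.

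The genes whose pattern over the 6 arrays lay closest to each member, by Pearson's r of log2 values among 13279 other genes, are given as a description, since with 6 arrays many genes reach a high r. Stat3 was closest to Il18bp, the gene of a secreted binder of interleukin 18 (r = 0.997), and 595 genes had r above 0.9 with it. Il18bp rose in KO (log2 1.69; limma, adjusted p = 0.0302). Jak3 was closest to Cd47, the gene of a surface signal against engulfment (r = 0.998), Jak2 to Mfn1, a gene of mitochondrial fusion (r = 0.996), and Stat2 to Suco (r = 0.993). Stat6 was closest to Smyd5 (r = 0.997), Stat5b to Lemd2, a nuclear envelope gene (r = 0.992), Stat5a to Polr3d, an RNA polymerase III subunit gene (r = 0.989), Jak1 to the keratin gene Krt75 (r = 0.979) and Stat4 to the clone 2310047D07Rik (r = 0.971). None of these 8 other than Il18bp passed the test.

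Genes around the family were taken from 9 lists of cytokines, receptor chains, inhibitors, partners and reported STAT target genes. Of 117 list genes measured, each by its brightest probe set, 7 rose in KO and 0 fell (limma, adjusted p under 0.05), while 1.37% of all genes rose and 0.956% fell. The lists share genes and were chosen with earlier results of these data known, so their counts are not independent of those results or of each other. At an unadjusted p under 0.05, 10.7% of all genes were higher and 11.6% lower in KO, and the median log2 difference of all genes was -0.03.

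Among the cytokine ligands Ifng and Il10 rose, 11 of 13 did not pass, and the median log2 difference was 0.84. The unadjusted p (limma) was under 0.05 for 8 higher and 0 lower. Ifng, the gene of interferon gamma, whose receptor uses JAK1 and JAK2, read 663.4, 750.6 and 1104 on KO A, B and C and 240.6, 203.8 and 174.7 on Het A, B and C (log2 2.001; limma, adjusted p = 0.0263). Il10, a cytokine that signals through STAT3, read 754.8, 745.9 and 1624 in KO and 74.5, 137.2 and 181.9 in Het (log2 2.98, adjusted p = 0.0462).

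Of the 29 receptor chains listed 23 were measured and 0 passed (limma; without adjustment, p was under 0.05 for 11 higher and 1 lower), with a median log2 difference of 0.40. Ifngr1, a chain of the interferon gamma receptor, read 5451, 5299 and 6387 in KO and 4039, 3511 and 4007 in Het (log2 0.57, adjusted p = 0.0720). Il7r, the interleukin 7 receptor chain that pairs with the common gamma chain, read 20464, 14922 and 12369 in KO and 8179, 5137 and 6553 in Het (log2 1.26, adjusted p = 0.0737). Both kept the groups apart without passing. Dimmer probe sets of Il2rb, a chain of the interleukin 2 receptor (log2 1.12), and of Ifnar2, a chain of the type I interferon receptor (log2 0.74), did pass, at adjusted p = 0.0424 and 0.0429, and were singled out after their values were seen. The brightest Ifnar2 probe set had a negative log2 difference of -0.34 (adjusted p = 0.0836).

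Among 19 inhibitors and phosphatases Socs3 and Ptpn1 rose and 17 did not pass, with a median log2 difference of 0.16. Without adjustment, p was under 0.05 (limma) for 7 higher and 3 lower. The 3 lower were Socs4 (log2 -0.27), Socs5 (log2 -0.50) and Ptpn6 (log2 -0.24). Socs3, whose product shuts off JAKs at the interleukin 6 receptor and is itself a STAT3 target, read 17897, 21265 and 24964 on KO A, B and C and 6035, 4432 and 6137 on Het A, B and C (log2 1.95; limma, adjusted p = 0.0222). Ptpn1, a phosphatase that removes phosphate from JAK2, read 13626, 15127 and 13211 in KO and 8166, 8444 and 8274 in Het (log2 0.75, adjusted p = 0.0254). Both groups were tight beside the gap. A dimmer probe set of Ptpn2, a related phosphatase, passed as well (log2 1.02, adjusted p = 0.0191), while the brightest Ptpn2 probe set gave 0.01 and adjusted p = 0.946. Of 12 partners and coactivators 0 passed (limma; without adjustment, p was under 0.05 for 3 higher and 0 lower; median 0.18). A dimmer probe set of Stam2, an adaptor bound by JAKs, did pass (log2 0.72, adjusted p = 0.0424), while the brightest Stam2 probe set gave 0.24 (adjusted p = 0.355) with overlapping groups. This dimmer Stam2 probe set and the dimmer Ptpn2 one were singled out after their values were seen. The list also holds the inhibitor Cish (log2 0.55, adjusted p = 0.0906), and Nmi, whose product binds STATs, gave 0.30 (adjusted p = 0.173).

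The target lists all had positive medians. Of 16 STAT2 and interferon targets 0 passed (limma; without adjustment, p was under 0.05 for 8 higher and 0 lower; median log2 0.68), with Oas1a at 1.16 (adjusted p = 0.0535) and Ddx58 at 0.67 (adjusted p = 0.0780), both genes of sensors of foreign RNA. The 2 other Ddx58 probe sets gave -0.30 and 0.41, and neither passed. Of 15 STAT3 targets Socs3 and Il10, given above, rose and 13 did not pass (median 0.35). The unadjusted p (limma) was under 0.05 for 5 higher and 1 lower, Rora (log2 -0.56). Of 10 STAT4 targets Ifng and Tbx21 rose and 8 did not pass (median 0.86), with unadjusted p (limma) under 0.05 for 7 higher and 0 lower. Stat4 itself gave a log2 difference of 0.004 with an interval of -0.52 to 0.52. Whether the level of Stat4 bears on these targets was not tested. Tbx21, which encodes T-bet, the master regulator of Th1 cells, read 1698, 2925 and 1668 in KO and 383.1, 564.7 and 454.4 in Het (log2 2.13, adjusted p = 0.0317).

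Of 19 STAT5 targets Gzmb and Cdkn1a rose and 17 did not pass (median log2 0.67). The unadjusted p (limma) was under 0.05 for 13 higher and 0 lower. Gzmb, a granzyme gene of cytotoxic granules, read 14809, 10527 and 24916 on KO A, B and C and 640.9, 1509 and 1067 on Het A, B and C (log2 3.96; limma, adjusted p = 0.0253). Cdkn1a, which encodes p21, a brake on the cell cycle, read 661.3, 646.3 and 1017 in KO and 131.0, 236.5 and 180.5 in Het (log2 2.09, adjusted p = 0.0369). Both are also known to answer signals other than STAT5. Of 12 STAT6 targets 0 passed (limma; without adjustment, p was under 0.05 for 6 higher and 0 lower; median 0.52). Il4, the gene of the cytokine that activates STAT6, gave log2 3.52 (adjusted p = 0.0541) with Het arrays at 13.2 to 23.0, and Epas1, a hypoxia-response factor gene, read 374.3, 3097 and 4981 in KO and 43.2, 45.1 and 70.2 in Het (log2 5.12, adjusted p = 0.0695).

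**Figure D4:**
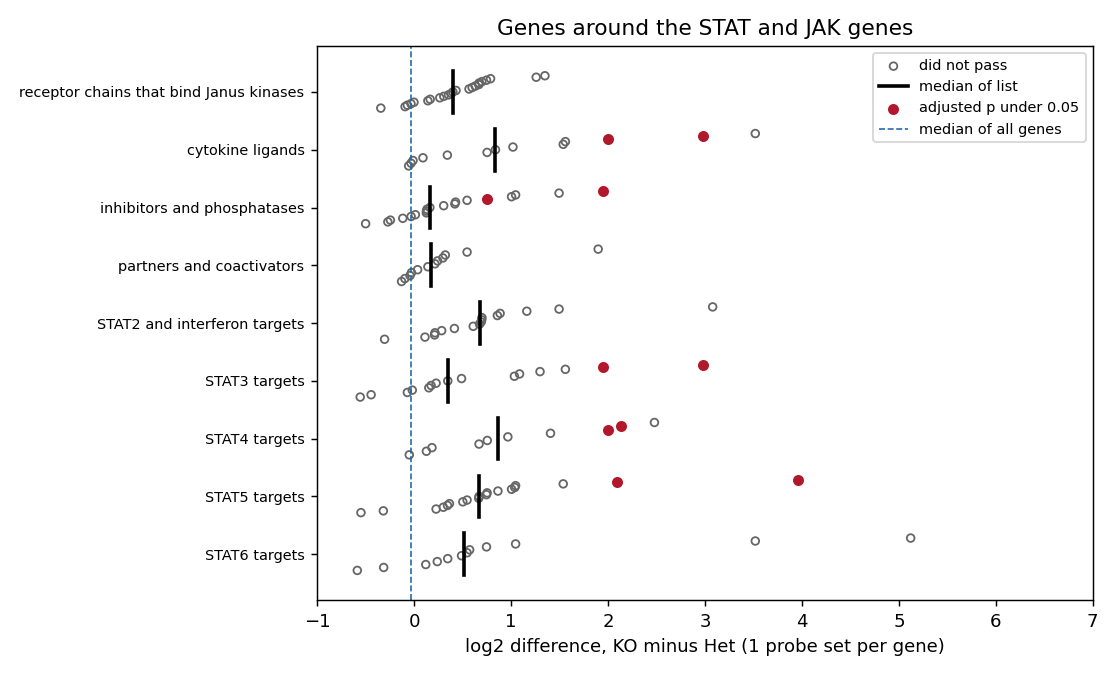
Log2 difference, KO minus Het, of each measured gene of 9 lists (1 probe set per gene), with genes past the test filled red, list medians as black bars and the median of all genes (-0.03) as a dashed line. Each list median lies to the right of the dashed line, from 0.16 for inhibitors and phosphatases to 0.86 for STAT4 targets, and 0 genes below 0 passed.

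With all arrays 7 list genes were called. The count was 5 without KO A and 0 when any other single array, or both B arrays, was left out, and which genes made up the 5 was not compared. The STAT and JAK probe sets called were 0 in each of those fits.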

How the data were processed

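Per the labels, the deposited values are GCRMA normalized intensities. The method estimates non-specific binding from probe letters, equalises the arrays and merges the probes of a set, which can enlarge folds of dim sets. No version is named in the labels. The authors' deposited intensities were on a linear scale, and log2 was taken here. From 45101 probe sets, 64 controls and 1 lacking a value were dropped, and those with log2 above 4 on at least 3 of 6 arrays entered the test.

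The platform annotation gave 34958 probe sets 1 symbol and 932 several, and 9211 are unnamed here. The test of KO against Het used limma 3.58.1 under R 4.3.3 (lmFit and eBayes) as a two-sided test without covariates. Adjustment was by Benjamini-Hochberg across the 29507 probe sets, at a threshold of 0.05, and intervals are 95%. The fitting step was tested on simulated data.

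The members and lists were chosen with earlier results of these data known. The rule named every member probe set and, per list, up to 4 genes past the threshold (the 2 of smallest p where 0 passed). It also named Dicer1, Foxp3, Cd4, the gene most like each member and the markers. Promoter windows came from RefSeq, GRCm38.p6. The alternatives tried were the array letter as a block, looser and stricter filters, 2 other scalings, an intensity trend with robust moderation, weighting of arrays, averaging of a gene's probe sets, and fits that drop each array or both B arrays.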

Additional observations from a re-analysis of the deposited data

How the results depend on the processing

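The STAT and JAK probe sets had 0 calls in every alternative fitted to single probe sets but array weights, where 1 probe set, Stat3 1460700_at, passed (log2 0.65; limma, adjusted p = 0.0477). Its adjusted p ranged from 0.0477 to 0.213. Array weights called 957 probe sets in all, against 525, and 12 list genes, against 7. The stricter filter called 12 list genes and averaging each gene's probe sets, which was run for list genes only, 16. With the replicate letter as a block 0 probe sets and 0 list genes were called (limma; 5365 probe sets had p under 0.05 without adjustment). Arrays of the same letter were not shown to be pairs: their deviations from the group means correlated at 0.28 for A, -0.17 for B and 0.01 for C. Without both B arrays 0 probe sets and 0 list genes were called (limma; 5274 without adjustment). Leaving out 1 array called 0 to 176 probe sets and 0 to 5 list genes. The causes were not tested.

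Of 266 single values under alternatives 20 changed sign, all of Stat4, Stat5a, Stat5b or Jak1 probe sets that never passed. Quantile normalization turned Stat4 to -0.030 and Stat5a 1421469_a_at to -0.025. Array weights turned that Stat5a probe set to -0.044, Jak1 1433805_at to 0.0026 and Jak1 1433804_at to 0.22. Without both B arrays Stat5a 1421469_a_at was -0.29, Stat5b 1422102_a_at 0.012, Jak1 1433805_at 0.059 and Jak1 1433804_at 0.95. Leaving out 1 array gave -0.19 to 0.19 for Stat4, -0.22 to 0.31 for Stat5a 1421469_a_at and -0.35 to 0.011 for Stat5b 1422102_a_at. For Jak1 the same ranges were -0.10 to 0.053 (1433803_at), -0.092 to 0.064 (1433805_at) and -0.84 to 0.69 (1433804_at).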
